A study of Mus musculus with 4 samples.

Results

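The ADAM family (a disintegrin and metalloprotease) was followed in whole testis of mice that lack Adad2, a germ cell RNA-binding protein of the adenosine deaminase domain family, and in wild type testis. Members were the rows of the expression table whose symbol is Adam followed by a number and, where present, a letter a or b, so that the secreted Adamts proteases stayed out. This gave 32 genes of 26068 named rows, and 23 of the 32 had a mean of at least 0 on the log2 RPKM scale over the 4 libraries, where RPKM is the read count scaled to gene length and library size and 0 stands for 1 RPKM. By general knowledge of where each gene is transcribed, 19 members were classed as germ cell genes, 8 as broadly expressed, 3 as genes of the nervous system and 2 as genes of the epididymis or lymphoid cells.

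The animals were B6D2F1 males, 24 days old. Wild type gave 2 libraries and homozygous Adad2 knockout gave 2, all made from total RNA of whole testes with a TruSeq kit. The labels do not say whether 2 libraries of a genotype came from separate animals, so p-values measure the spread between these libraries, which may be technical. The steps between low values put the depth of the 4 libraries between 29400000 and 36900000 reads. Adad2 itself was at 4.66 and 4.47 log2 RPKM in wild type and at 3.73 and 3.30 in the knockout, 2.07-fold lower (log2 difference -1.05, SE 0.16, adjusted p = 0.00604), so its transcript was reduced and still present in the libraries labelled knockout.

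ADAM proteins sit in the cell membrane and carry, from the outer end inward, a prodomain, a metalloprotease domain, a disintegrin domain, a cysteine-rich domain and usually a cytoplasmic tail. Members with an intact zinc-binding site cut other membrane proteins near the cell surface, a step called shedding. Members without it are thought to act through binding. Many rodent members are made in male germ cells, reach the sperm surface as complexes, and are processed in the testis and epididymis. Loss of Adam1a, Adam2 or Adam3 in mice is known to leave sperm that pass poorly into the oviduct or bind poorly to the egg coat.

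The zinc site is the sequence that separates the protease members from the binding members, and it is shown here for the genes on which the results turn. The window covers 33 coding bases, from the codon of the first zinc-binding histidine to that of the third. Capitals mark codons that match the consensus at the 3 histidines and the catalytic glutamate. Sequences are the coding strand of Gencode M21 transcripts on GRCm38.
Adam10: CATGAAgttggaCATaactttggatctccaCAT
Adam17: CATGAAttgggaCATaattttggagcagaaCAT
Adam1a: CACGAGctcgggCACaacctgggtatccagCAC
Adam1b: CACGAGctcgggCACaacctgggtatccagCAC
Adam24: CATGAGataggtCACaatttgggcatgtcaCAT
Adam34: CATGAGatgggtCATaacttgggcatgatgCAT
Adam29: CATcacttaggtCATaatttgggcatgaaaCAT
Adam4: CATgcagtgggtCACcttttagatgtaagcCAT
Adam6a: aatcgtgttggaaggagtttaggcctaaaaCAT
Adam6b: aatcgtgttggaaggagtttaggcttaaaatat
Adam2: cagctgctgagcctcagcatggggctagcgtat
Adam3: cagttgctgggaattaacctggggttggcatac
The full consensus was present in 19 of the 32 members and in all 8 broadly expressed ones. Adam29 and Adam4 keep the 3 histidine codons and lack the glutamate codon. Adam6a keeps 1 of the 4 codons, and Adam6b, Adam2 and Adam3 keep 0.

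Germ cell members were divided in the knockout, while none of the 4 broadly expressed members tested passed in either direction. The test took in 18 of the 19 germ cell members and 4 of the 8 broadly expressed ones. Of the 23 members tested, 10 were lower at an adjusted p under 0.05 (limma, Benjamini-Hochberg over all 13414 genes tested) and 0 were higher, all 10 of them germ cell genes: Adam1a, Adam24, Adam25, Adam39, Adam26a, Adam26b, Adam6a, Adam6b, Adam4 and Adam21. Over all genes tested, 7.15% were called lower and 1.22% higher, 8.36% in either direction. At an unadjusted limma p under 0.05, 11 of the 23 members were lower and 1 was higher, beside 1519 and 2097 of the 13414 genes tested. With no filter on low values, all 32 members were tested and 9 were lower, against 4.14% of all named rows lower and 0.372% higher. Adam39 and Adam4 then missed the threshold (adjusted p = 0.0842 and 0.0594), and Adam34 passed it (0.0133). The members Adam26b, Adam29, Adam4, Adam21 and Adam6b passed the filter only through their wild type level, so the count among tested genes is partly fixed by the filter. Leaving out 1 library changed the sizes of the 10 log2 differences called lower. They ran from -3.74 to -0.91 without wild type replicate 1, and from -3.75 to -1.12 without wild type replicate 2. Without knockout replicate 1 they ran from -4.63 to -1.22, and without knockout replicate 2 from -2.96 to -0.82. Calls in these fits also depend on how far limma pooled the spread, and are given below.

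Both knockout libraries lay below both wild type libraries in 13 of the 32 members, all of them germ cell genes, and above them in 5, which were Adam10, Adam9, Adam17, Adam11 and Adam23. The same held for 15.3% and 32.2% of all named rows, and for 16.8% and 46.4% of the genes tested. The median log2 difference, knockout minus wild type, was -1.53 over the 19 germ cell members, 0.06 over the 8 broadly expressed members and 0.14 over all genes tested. These medians are descriptions of the lists, and the difference between them was not tested.

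**Figure D1:**
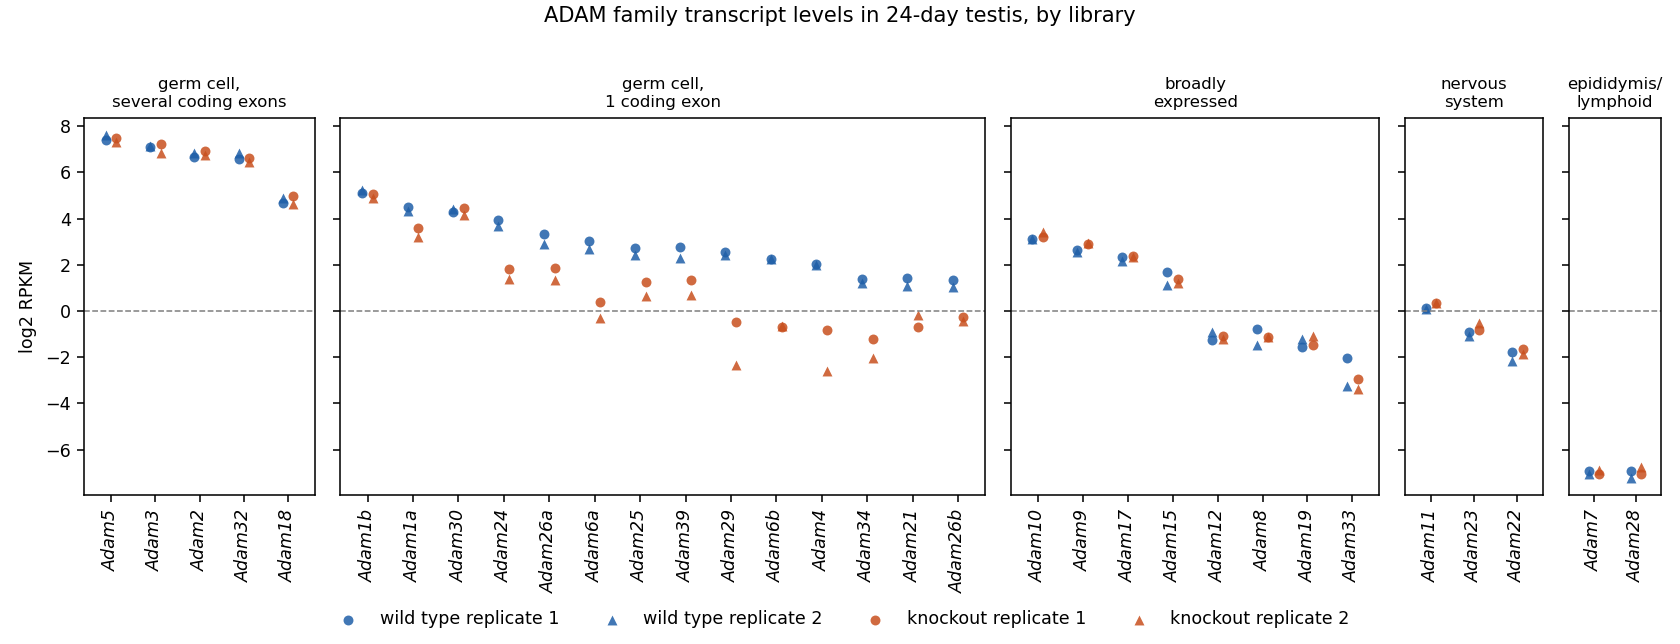
Level of each ADAM member in the 4 libraries, in log2 RPKM, with wild type and knockout libraries as separate points and the filter at 0 as a dashed line. The points of Adam2, Adam3, Adam5, Adam32 and Adam18 overlap between genotypes, whereas those of Adam6a, Adam6b, Adam4 and Adam29 lie apart.

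The samples were whole testes, in which fewer cells of a type and less RNA per cell cannot be told apart. Transcripts of spermatids moved with the lower ADAM members. Of 15 round spermatid markers, 12 were lower in the knockout (median log2 difference -1.98), and their summed level was 564 and 522 RPKM in wild type against 264 and 213 in the knockout. Of 12 markers of elongating spermatids, which include protamines and transition proteins, 11 were called lower (median -2.42). The 1 not called was the transition protein gene Tnp2 (log2 difference -5.39, limma adjusted p = 0.0761). The sum of the 12 was 1190 and 1110 RPKM in wild type against 173 and 111 in the knockout. No marker of either list was under 0.1 RPKM in all libraries. Of 12 spermatocyte markers 1 was lower (median 0.10), with sums of 1790 and 2070 against 2020 and 1880 RPKM. The 11 Sertoli cell markers had sums of 506 and 476 against 600 and 606 RPKM, with 0 of 11 called. Beside these counts, 7.15% of all genes tested were called lower and 1.22% higher, with a median of 0.14. The part of these cell types in the ADAM differences was not tested.

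The sperm surface members with many coding exons did not differ by genotype beyond their spread. They are Adam2 (fertilin beta), Adam3 (cyritestin), Adam5, Adam18 and Adam32, all without the zinc consensus, and their log2 differences ran from -0.15 to 0.08. Adam5 was the most abundant ADAM transcript, at 168 and 194 RPKM in wild type and 183 and 161 in the knockout. Adam3, needed for sperm to pass the uterotubal junction, was at 137 and 142 RPKM in wild type and 149 and 114 in the knockout. The libraries of the genotypes overlapped for both genes, and the 95% confidence intervals of the log2 difference were -0.37 to 0.22 for Adam5 and -0.44 to 0.23 for Adam3 (adjusted p = 0.689 and 0.628).

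Adam2, the common subunit of the fertilin complexes, was at 101 and 116 RPKM in wild type and 122 and 107 in the knockout (log2 difference 0.08, interval -0.21 to 0.37, adjusted p = 0.667). Adam32 was at 6.60 and 6.83 log2 RPKM against 6.64 and 6.47 (-0.15, interval -0.44 to 0.13, adjusted p = 0.419). Adam18 was at 25.6 and 30.1 RPKM against 31.3 and 25.1 (0.02, interval -0.31 to 0.34, adjusted p = 0.944). In each of the 5 genes the knockout range overlapped the wild type range. In wild type the order was Adam5, Adam3, then Adam2 and Adam32, whose libraries overlapped each other, and Adam18 last.

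Adam1a and Adam1b encode alternative alpha subunits that pair with Adam2 to form fertilin, and they parted in the knockout. The genes lie 21.6 kb from end to end on chromosome 5, with Adam1b at chr5:121950106-121952989 and Adam1a at chr5:121968613-121971704 on the minus strand of mm9, and each has 1 coding exon. Adam1a, the subunit of the complex of the endoplasmic reticulum, was at 23.0 and 19.9 RPKM in wild type and 12.1 and 9.23 in the knockout, 2.02-fold lower (log2 difference -1.02, SE 0.15, adjusted p = 0.00565). Adam1b, the subunit of the sperm surface complex, was at 35.0 and 37.5 RPKM in wild type and 33.4 and 29.9 in the knockout (log2 difference -0.20, interval -0.45 to 0.06, adjusted p = 0.267).

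Both genes had lower values in both knockout libraries than in both wild type ones, and only Adam1a passed the test. The log2 ratio of Adam1a to Adam1b within a library was -0.61 and -0.91 in wild type and -1.46 and -1.70 in the knockout. The ratio therefore shifted by -0.82, with no overlap between genotypes, at an exact two-sided permutation p of 0.333, the smallest that 2 against 2 libraries allow. The zinc site windows of the 2 genes printed above are identical, and their coding sequences are 82.5% identical over the aligned bases. The effect of reads that match both genes was not tested. The row of Adam1a overlaps the rows of Tmem116 and Mapkapk5, and that of Adam1b overlaps Tmem116. The sources used here do not say whether reads were counted by strand.

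The testases, rodent germ cell proteases of chromosome 8 with an intact zinc site and 1 coding exon, were lower as far as they could be tested. Adam24 (testase 1), which acts on the sperm surface in the block to entry of further sperm, was at 15.3 and 12.9 RPKM in wild type and 3.55 and 2.58 in the knockout, 4.63-fold lower (log2 difference -2.21, SE 0.17, adjusted p = 0.000525). Adam25 (testase 2) was at 6.61 and 5.42 RPKM against 2.37 and 1.57, 3.10-fold lower (adjusted p = 0.00507). Adam39 was at 6.92 and 4.93 RPKM against 2.50 and 1.60, 2.92-fold lower (adjusted p = 0.0212). The knockout libraries lay under the wild type libraries in all 3 genes, and knockout replicate 2 was the lowest library each time. Adam25 and Adam39 share 96.1% of their aligned coding bases, so how reads were divided between them is uncertain, and their log2 ratio shifted by -0.09 between genotypes (exact permutation p = 0.667).

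Adam26a (testase 3) was at 10.1 and 7.51 RPKM in wild type and 3.63 and 2.55 in the knockout, 2.86-fold lower (log2 difference -1.52, adjusted p = 0.00888). Adam26b was at 2.50 and 2.03 RPKM against 0.833 and 0.734, 2.88-fold lower (-1.53, adjusted p = 0.00253). These copies are 94.4% identical, and their ratio within a library shifted by 0.01 between genotypes (exact permutation p = 1.0). Adam34 (testase 4), 89.6% identical to Adam26a, was at 2.63 and 2.29 RPKM against 0.429 and 0.247, 7.54-fold lower. Its mean stood under the filter and it was not tested, while with no filter its adjusted p was 0.0133.

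The other germ cell members with 1 coding exon included the largest differences of the family, those of Adam29, Adam4 and Adam6b. Adam6b was at 4.72 and 4.83 RPKM in wild type and 0.613 and 0.645 in the knockout, 7.59-fold lower (log2 difference -2.92, SE 0.17, adjusted p = 6.29e-05). Adam6a was at 8.13 and 6.36 RPKM against 1.32 and 0.799 (log2 difference -2.81, SE 0.26, adjusted p = 0.00158). Both lie within the immunoglobulin heavy chain region, at chr12:114727756-114730229 and chr12:114782119-114784625 of mm9, and deletion of this pair is known to impair male fertility in mice. They are 94.8% identical, and their ratio shifted by 0.12 between genotypes (exact permutation p = 1.0).

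Adam4 was at 4.04 and 4.01 RPKM in wild type, from 306 and 371 reads, and at 0.557 and 0.163 in the knockout, from 46 and 12 reads. It was 13.4-fold lower (log2 difference -3.74, SE 0.62, adjusted p = 0.0369), and it lies within the span of Cox16 on the same strand. Adam29 was at 5.96 and 5.35 RPKM from 491 and 538 reads in wild type and at 0.712 and 0.199 from 64 and 16 reads in the knockout. Its difference was the largest of the family, -3.90 on the log2 scale with an interval of -5.78 to -2.03, and it missed the threshold (adjusted p = 0.053). In both genes the knockout libraries lay far under wild type and also far from each other, with replicate 2 lower.

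Adam21, on chromosome 12 with Adam4, was at 2.72 and 2.15 RPKM in wild type (239 and 231 reads) and at 0.615 and 0.875 in the knockout (59 and 75 reads), 3.29-fold lower (log2 difference -1.72, adjusted p = 0.00293). Here replicate 1 was the lower knockout library. Adam30, which has 1 coding exon and an intact zinc site, was the one member of its class whose genotypes overlapped. It was at 19.4 and 21.2 RPKM in wild type and 21.7 and 17.6 in the knockout, with overlapping libraries (log2 difference -0.05, interval -0.34 to 0.24, adjusted p = 0.796). Knockout replicate 2 was below replicate 1 in 11 of the 13 members whose genotypes did not overlap in the lower direction. This order was not particular to them. It also held in all 5 germ cell members with several coding exons and in 5 of the 8 broadly expressed members. The share over all genes was not counted.

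**Figure D2:**
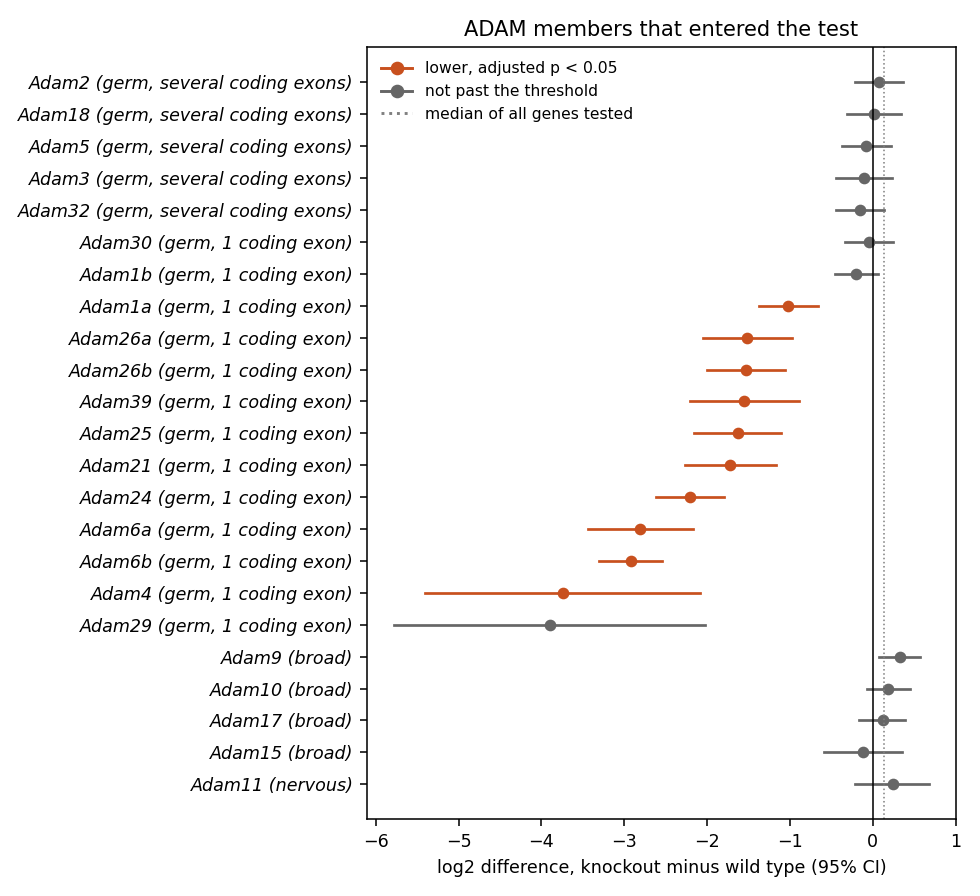
Log2 difference of each tested ADAM member, knockout minus wild type, with its 95% confidence interval, and the median of all genes tested (0.14) as a dotted line. The 10 members past the threshold lie between -3.74 and -1.02, and the interval of Adam29 is the widest.

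The germ cell members separated by gene structure, a split that was chosen after the values were seen and so carries no test. Of the 14 with 1 coding exon, all had a log2 difference below 0, 13 had genotypes that did not overlap, and 10 of the 13 tested were called lower (median -1.68 over the 14). Adam26b, Adam29, Adam4, Adam21 and Adam6b, which passed the filter only through their wild type level, are all among the 14. Of the 5 with several coding exons, 0 were called and 0 had genotypes apart (median -0.08). Over all genes tested that matched the annotation, 123 of 775 with 1 coding exon were called lower (15.9%, median 0.12), and 661 of 10968 with several coding exons (6.03%, median 0.15). In these classes, 278 of 775 and 2818 of 10968 had a log2 difference below 0. Both knockout libraries lay below both wild type libraries in 205 and 1640, and above them in 316 and 5389. The 3 tested ADAM genes with 1 coding exon that were not called were Adam30, Adam1b and Adam29, and only in Adam30 did the genotypes overlap.

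The zinc site followed the same split only in part. Of the 10 germ cell members with the consensus, which all have 1 coding exon, 7 of 9 tested were called lower (median -1.54). Of the 4 with 1 coding exon and no consensus, which are Adam4, Adam6a, Adam6b and Adam29, 3 were called lower (median -3.33). Adam4, Adam6b and Adam29 here, and Adam26b and Adam21 among those with the consensus, passed the filter only through their wild type level. Both counts are therefore partly fixed by the filter, and the classes were not compared by a test. The share called lower over all genes tested was 7.15%. The 5 with several coding exons also lack the consensus, and 0 of them were called.

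By position, some groups of neighbours were called together and others were not. The proximal cluster at chr8:25712718-26127394 of mm9 spans 414.7 kb and holds Adam18, Adam3, Adam5, Adam32 and the broadly expressed Adam9, with 0 called. The middle cluster at chr8:41760448-41912215 spans 151.8 kb and holds Adam24, Adam25 and Adam39, with 3 called. The distal cluster at chr8:44605218-44784841 spans 179.6 kb and holds Adam26b, Adam26a and Adam34, with 2 called and Adam34 not tested. On chromosome 12, both members of each pair were called, Adam6b with Adam6a over 56.9 kb and Adam4 with Adam21 over 149.0 kb. On chromosome 5 the neighbours parted, with Adam1a called and Adam1b not. Members of a cluster with 1 coding exon are close copies in part, so they are not independent of each other.

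Lower germ cell members also tended to be the less abundant ones. Across the 19 germ cell members, the mean wild type level and the log2 difference had a Pearson r of 0.77 and a Spearman rho of 0.77. Within the 14 with 1 coding exon the values were 0.59 and 0.58. These describe genes that share the same 4 libraries, and the wild type values enter both measures.

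**Figure D3:**
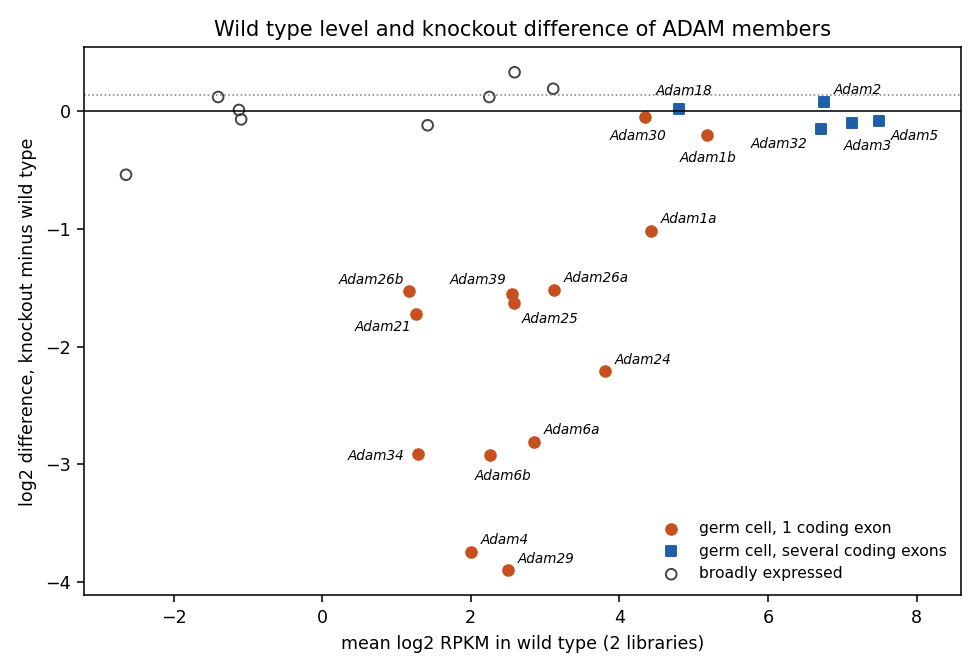
Log2 difference, knockout minus wild type, against the mean wild type level in log2 RPKM for germ cell members with 1 coding exon, those with several coding exons and broadly expressed members. The 5 members with several coding exons lie near 0 at the right, and Adam4 and Adam29 lie lowest, at -3.74 and -3.90.

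Most of the summed ADAM transcript level came from members that did not pass the test. The 14 germ cell members with 1 coding exon summed to 147 and 136 RPKM in wild type and to 84.4 and 68.7 in the knockout. The 5 with several coding exons summed to 529 and 596 RPKM against 585 and 495, which overlap. The latter made up 78.3% and 81.4% of the germ cell ADAM sum in wild type and 87.4% and 87.8% in the knockout.

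Among the broadly expressed members, the sheddases Adam10, Adam9 and Adam17 had slightly higher values in both knockout libraries, and none passed the test. Adam10, the main sheddase of Notch receptors, was at 8.56 and 8.75 RPKM in wild type and 9.14 and 10.7 in the knockout (log2 difference 0.19, interval -0.07 to 0.45, adjusted p = 0.292). Adam9 was at 6.14 and 5.86 RPKM against 7.44 and 7.61 (0.33, interval 0.08 to 0.57, adjusted p = 0.109). Adam17, which releases tumour necrosis factor and ligands of the epidermal growth factor receptor, was at 5.02 and 4.52 RPKM against 5.21 and 5.10 (0.12, interval -0.16 to 0.39, adjusted p = 0.521). The median of all genes tested, 0.14, lay between those of Adam17 and Adam10. Adam15 was at 3.25 and 2.19 RPKM against 2.58 and 2.34, with overlapping libraries (adjusted p = 0.699). Adam8, Adam12, Adam19 and Adam33 were between 0.0944 and 0.585 RPKM in every library, under the filter, with overlapping genotypes.

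The nervous system members, which lack a working zinc site and bind other proteins at synapses, were low in testis. Adam11 was at 1.09 and 1.07 RPKM in wild type and 1.27 and 1.28 in the knockout (log2 difference 0.24, interval -0.21 to 0.68, adjusted p = 0.417). Adam23 and Adam22 stood under the filter, between 0.223 and 0.705 RPKM. Adam7, a gene of the epididymis, had 1 read in the second wild type library and 0 in the others. Adam28, of epididymis and lymphoid cells, had 1 read in the second knockout library and 0 in the others. The 10 epididymis markers summed to at most 0.543 RPKM in any library, and 8 of them were under 0.1 RPKM in all 4.

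Sperm ADAM proteins need helpers to fold, pair and reach the surface, and 17 of 18 genes of a list of such helpers had a row. Of these 17, all tested, 4 were lower and 1 higher, with a median of 0.02, beside 7.15% lower and 1.22% higher over all genes tested. Calr3 (calsperin), a testis chaperone required for Adam3, was at 6.54 and 6.64 RPKM in wild type and 1.48 and 0.848 in the knockout, 5.87-fold lower (log2 difference -2.55, SE 0.26, adjusted p = 0.00234). Pdilt, a testis protein disulfide isomerase homologue that acts with it, was at 4.70 and 4.50 log2 RPKM against 2.92 and 2.35, 3.92-fold lower (-1.97, SE 0.20, adjusted p = 0.00243). Clgn (calmegin), the chaperone on which fertilin assembly depends, was at 135 and 153 RPKM against 160 and 153, with overlapping libraries (0.13, interval -0.14 to 0.40, adjusted p = 0.476).

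Ace, whose testis form is needed for Adam3 to be placed on sperm, was 2.16-fold lower (log2 difference -1.11, SE 0.10, adjusted p = 0.000449), with 14.5 and 14.4 RPKM against 6.85 and 6.55. Prss55, a serine protease required for mature Adam3, was 20.2-fold lower (-4.34, SE 0.30, adjusted p = 0.000491), with 8.11 and 9.29 RPKM against 0.584 and 0.315. Tex101, a germ cell surface protein needed for Adam3 on sperm, rose 2.20-fold (interval of the log2 difference 0.85 to 1.42, adjusted p = 0.000977), from 202 and 231 RPKM to 466 and 483. Prss37, another member of the Prss family also needed for Adam3, was singled out after its values were seen. It had the lowest difference of the list, -5.13 with an interval of -8.03 to -2.23, and missed the threshold (limma adjusted p = 0.0848). Of the 17 helpers, 4 were thus called lower, 1 higher and 12 not called, while the RNA of Adam3 and Adam2 overlapped between genotypes. Protein was not measured. The spermatid marker sums given above moved with the lower helpers as well, and their part was not tested.

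**Figure D4:**
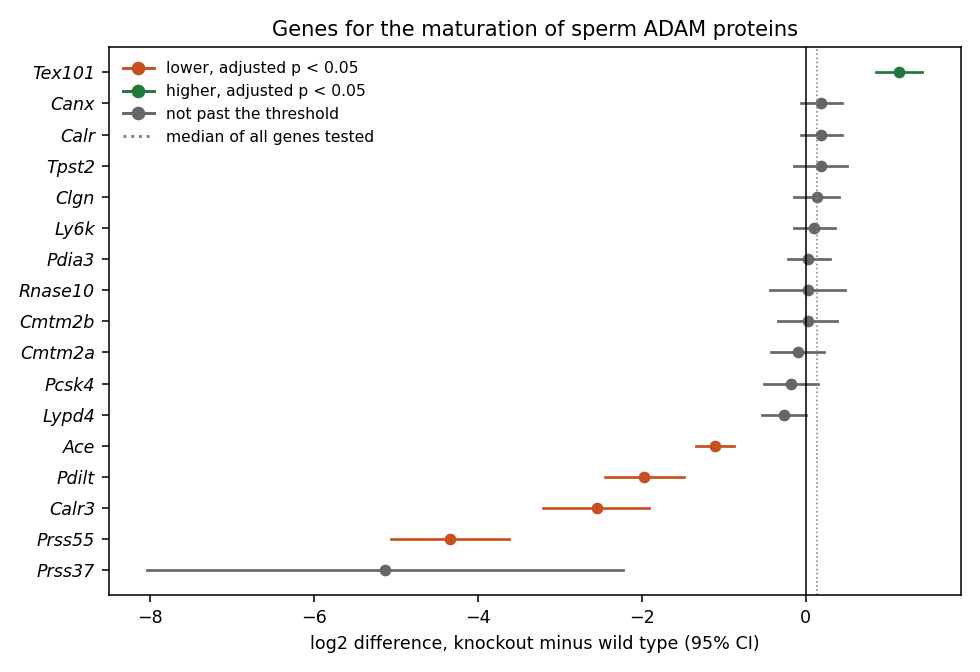
Log2 difference, knockout minus wild type, with 95% confidence interval for genes that act in folding, pairing and surface placement of sperm ADAM proteins. Calr3, Pdilt, Ace and Prss55 lie between -4.34 and -1.11, Tex101 lies above 0 with an interval of 0.85 to 1.42, Clgn lies at 0.13, and Prss37 has the widest interval.

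Genes that control the broadly expressed sheddases showed little that passed the test. For comparison, 7.15% of all genes tested were called lower and 1.22% higher, with a median of 0.14. Of 20 regulators (iRhoms, tetraspanins, proprotein convertases and TIMP inhibitors), 14 were tested, 0 were lower and 1 was higher, with a median of 0.30. That gene was Rhbdf2 (iRhom2), which carries Adam17 through the secretory pathway. It was at 1.66 and 1.75 RPKM in wild type and 2.76 and 2.51 in the knockout, 1.55-fold higher (log2 difference 0.63, SE 0.16, adjusted p = 0.0482), and its adjusted p was 0.105 with no filter. The tetraspanins Tspan33 and Tspan5, partners of Adam10, had log2 differences of 0.49 and 0.29 (adjusted p = 0.135 and 0.147). The inhibitors Timp1 and Timp3 had log2 differences of 0.31 and 0.30 (adjusted p = 0.431 and 0.149).

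Of 28 sheddase substrates 12 were tested and 0 were called, with a median of 0.18. For this list and those that follow, the share called over all genes tested was 8.36%, with a median of 0.14. With so few genes tested, 0 calls say little about a list. The smallest p-values were those of Tnfrsf1a, Aplp2 and Cx3cl1, with log2 differences of 0.30, 0.28 and 0.46 (adjusted p = 0.131, 0.166 and 0.176). Notch1 had a log2 difference of 0.16 (adjusted p = 0.598), and Kitl, the Sertoli cell ligand of Kit, one of 0.27 (adjusted p = 0.188). Of 11 integrins and tetraspanin partners of the disintegrin domain, 6 were tested and 0 were called, with a median of 0.22. Itgb1 was nearest to the threshold, at 16.4 and 16.1 RPKM against 20.6 and 22.5 (0.41, interval 0.17 to 0.65, adjusted p = 0.0501). Over the alternatives its adjusted p ran from 0.0026 with the replicate block to 0.208 without wild type replicate 1, and it was under 0.05 in 5 of 11. Itgb5, Itga6 and Itgav had log2 differences of 0.22, 0.33 and 0.27 (adjusted p = 0.209, 0.217 and 0.387). Of 20 genes on a list of Adamts and related secreted proteases, 4 were tested and 0 were called (median 0.20). These 4 were Adamts10, Adamts2, Adamts5 and Adamts17, with log2 differences of 0.45, 0.27, 0.13 and -0.06 (adjusted p = 0.255, 0.374, 0.58 and 0.855). The Sertoli cell marker sums given above were higher in both knockout libraries too, and their part in these values was not tested.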

How the data were processed

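RNA of whole testes was sequenced in 4 libraries. The authors deposited log2 RPKM values per gene (read count scaled to gene length and library size, log2) for each library. Per the submitters' processing notes, bcl2fastq 2.17.1.14, Bowtie2 and the mm9 genome were used. For the counter, annotation, strand setting and handling of reads that match several copies: not given in the sources used here. Of 26127 rows, 59 had no name and were left out, and 0 sample columns were unmapped. Values had no exact 0: a gene with no read stood at 0.9 of a read, and every value between 1.5 and 10 reads in 521 genes of 1 exon was whole within 2%, which gave the depths. Values of the lowest genes therefore rest on few reads, and folds of low genes are imprecise.

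Genotypes were compared with limma 3.58.1 in R 4.3.3 (trend and robust, two-sided, Benjamini-Hochberg) over 13414 genes with a mean of at least 0 log2 RPKM, with genotype alone in the model. RPKM are not counts, so no count model was used. Data were simulated with 200 changed genes of 13414, and genes of the same mean level were given the same spread. Under that setting 91% of log2 changes of 1 and 29.9% of changes of 0.5 were recovered, with 9 false calls. Changes of 2 were recovered in 100%, whereas Adam29, at -3.9 with a knockout SD of 1.3, missed the threshold (limma adjusted p = 0.053). Whether these rates hold where genes of the same level differ in spread, or for genes with so wide a spread, was not tested. Coding sequences of Gencode M21 were aligned with MAFFT 7.526 and Biopython 1.88. Alternatives were no filter, a mean of at least 2, log2(RPKM + 1), quantile scaling, equal medians, limma without trend and robust estimation, a replicate block, and leaving out each library. Every member was accounted for. In each partner list the 2 to 4 genes with the smallest p and a set of genes chosen by name were named. Members and lists were chosen with earlier results of these data known.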

Additional observations from a re-analysis of the deposited data

How the results depend on the processing

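The 10 members called lower stayed below 0 in every alternative in which they could be fitted, which most alternatives could not have changed. Both knockout libraries lay below both wild type libraries in all 10, so leaving out a library could not turn the sign. The filters, plain limma and the replicate block leave the difference itself as it was. All 10 stayed past the threshold under equal medians, log2(RPKM + 1), quantile scaling, plain limma, the replicate block and without either knockout library, against 8 with no filter (not Adam39 and Adam4), 3 without wild type replicate 2 and 0 without wild type replicate 1. The count of members lower ranged from 0 to 11 over the fits that left out a library, and Adam29 was past the threshold in 6 alternatives (plain limma 0.00982, adjusted p). Requiring a mean of at least 2 left 3 members called of the 13 tested, and moved the medians to -0.13 (10 germ cell members), -1.02 (5 with 1 coding exon) and 0.19 (3 broadly expressed) because fewer genes were tested; 637 genes were then lower. With log2(RPKM + 1), which shrinks low values, the germ cell median was -0.98 and that of members with 1 coding exon -1.25. With no filter 97 genes were higher, and with quantile scaling 245 were higher and the broadly expressed median was 0.14 (4 members). The libraries share only a replicate number. Deviations of equal numbers had r = 0.331 over 13414 genes, and the replicate block gave 1477 genes lower, 1837 higher, and 1 ADAM member higher, Adam9 (adjusted p = 0.0231). In that fit, and without either knockout library, limma pooled the spread almost wholly across genes, so single-gene p-values there are very small. Leaving out 1 library, where the lone library of a genotype is assumed to vary like the others, gave 0 to 1308 genes lower and 0 to 494 higher (without wild type replicate 1, 1277 and 1080 at an unadjusted p under 0.05). Over these fits the germ cell median ran from -1.73 to -1.26, the broadly expressed one from 0.00 to 0.17, and that of members with several coding exons from -0.17 to 0.09. Members that changed sign were all short of the threshold: Adam15 (-0.40 to 0.16), Adam30 (-0.20 to 0.10), Adam18 (-0.14 to 0.17), Adam3 (-0.30 to 0.09), Adam5 (-0.18 to 0.03) and Adam2 (-0.02 to 0.18). The sign also changed for Adamts17 (-0.17 to 0.06, and 0.00 with quantile scaling), Adamts5 (-0.02 to 0.28), Notch1 (-0.06 to 0.38) and Timp1 (-0.06 to 0.68). None of these was called in the main fit. With the replicate block, partner genes past the threshold included Tspan33 (limma adjusted p = 0.00745), Cx3cl1 (0.0303), Tnfrsf1a (0.0338) and Timp3 (0.0426). For settings other than the stricter filter and the pseudocount, the cause was not tested. Rhbdf2 lost its call with no filter and without wild type replicate 1, wild type replicate 2 or knockout replicate 1. Itgb1 passed the threshold with the stricter filter (0.0373), log2(RPKM + 1) (0.0459), quantile scaling (0.0373), the block (0.0026) and without knockout replicate 1 (0.0337). Depth limits the lowest values, such as those of Adam4 and Adam29 with 12 and 16 reads in knockout replicate 2.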

Other observations

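Family genes stood in the table under other names and were outside the rule, and 3 of them are given here, chosen after their values were seen. RefSeq lists 4930529F22Rik, which lies between members of the middle cluster of chromosome 8, as Adam20. It was at 3.27 and 3.13 log2 RPKM in wild type and 2.43 and 1.77 in the knockout, 2.14-fold lower (log2 difference -1.10, limma adjusted p = 0.0372, and 0.121 with no filter). Gm4787, with the synonym Adam4b, was at 3.77 and 3.81 against 1.11 and -0.24, 10.2-fold lower (-3.35, limma adjusted p = 0.0398, and 0.0381 with no filter). Gm5346, listed as Adam34l in the distal cluster, was at 0.19 and -0.21 against -2.01 and -2.63 (-2.31) and stood under the filter, with a limma adjusted p of 0.0258 when no filter was set. Each has 1 coding exon, and both knockout libraries lay below both wild type libraries in each.

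RefSeq promoters on GRCm38.p6, taken from 250 bases before to 50 after the start, were at hand for 9 germ cell members. On either strand, TGACGTCA (the cAMP response element) was in 0 of the 9 and in 1.79% of all 32851 promoters, and its part TGACG in 0 of 9 and 20.8%. CCAAT was in 5 of 9, which were Adam1a, Adam25, Adam26b, Adam29 and Adam34, and in 37.4% of all. TATAAA was in 3 of 9, which were Adam29, Adam6a and Adam6b, and in 13.6% of all. These matches are descriptions of letters in a window.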
